A study of Mus musculus with 8 samples.

Results

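The AlkB family is a group of dioxygenases that use iron, oxygen and 2-oxoglutarate to remove methyl groups from, or hydroxylate, nucleic acids and proteins. The 9 mouse genes Fto and Alkbh1 to Alkbh8 were taken by name, and all 9 were among the 16279 genes of the input RNA table. By name, 1 of the 9 was also in a list of 2114 differential m6A peaks. The samples were N2a cells, which are mouse neuroblastoma cells, given a small interfering RNA against Emg1 or a control small interfering RNA and harvested 48 h later. Poly(A) RNA was sequenced before (input) and after immunoprecipitation (IP) with an antibody to N6-methyladenosine (m6A), in 4 groups of 2 libraries: Emg1 knockdown IP, Emg1 knockdown input, control IP and control input. Both conditions thus came from transfected cells, and no untransfected cells were analysed here.

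Methylation of adenosine in messenger RNA is written by the complex around Mettl3 and Mettl14 and read by proteins such as the Ythdf family. Fto and Alkbh5 are the known enzymes that take the mark off again, and Fto also acts on the methylated adenosine next to the cap. The other family members work mainly elsewhere: on alkylated DNA, on transfer RNA, in mitochondria or on proteins. All of them need 2-oxoglutarate, which isocitrate dehydrogenases and transaminases supply.

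Of the family, 3 members have a span that lies back to back with that of another gene, at most 75 bases away. Their promoters are shown because the neighbour starts so close by, and its own input RNA value can be set beside that of the family member. Below, shared refers to position only, and shared regulation was not tested. Alkbh2 and Ung also face away from each other. Their spans overlap by 868 bases, so no bases lie between them and this pair is not shown. The sequences are RefSeq promoter windows of the GRCm38.p6 build, 250 bases before to 50 bases after an annotated start, written on the strand of the family member. For Fto this start lies inside the gene span, downstream of its first base at 91313367, so the capitals do not adjoin it. Capitals mark the bases between the span of the family member and that of its neighbour. For Alkbh1 these bases also lie within the span of Nrp, a gene that overlaps both Alkbh1 and its neighbour Slirp.
Fto, shared with Rpgrip1l, chr8:91313275-91313574, plus strand: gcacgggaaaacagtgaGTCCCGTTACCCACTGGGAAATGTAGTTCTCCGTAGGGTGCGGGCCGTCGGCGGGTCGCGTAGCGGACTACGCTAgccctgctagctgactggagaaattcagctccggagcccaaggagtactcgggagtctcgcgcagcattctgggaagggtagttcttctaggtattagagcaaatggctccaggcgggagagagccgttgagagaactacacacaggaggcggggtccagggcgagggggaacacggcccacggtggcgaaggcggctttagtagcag
Alkbh1, shared with Slirp, chr12:87443790-87444089, minus strand: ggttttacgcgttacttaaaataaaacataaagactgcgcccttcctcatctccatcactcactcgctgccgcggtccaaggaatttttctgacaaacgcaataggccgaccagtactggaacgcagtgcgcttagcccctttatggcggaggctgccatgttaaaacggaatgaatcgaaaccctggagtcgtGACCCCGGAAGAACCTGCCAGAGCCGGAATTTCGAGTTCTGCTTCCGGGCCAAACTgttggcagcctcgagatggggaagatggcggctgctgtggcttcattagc
Alkbh4, shared with Lrwd1, chr5:136135895-136136194, plus strand: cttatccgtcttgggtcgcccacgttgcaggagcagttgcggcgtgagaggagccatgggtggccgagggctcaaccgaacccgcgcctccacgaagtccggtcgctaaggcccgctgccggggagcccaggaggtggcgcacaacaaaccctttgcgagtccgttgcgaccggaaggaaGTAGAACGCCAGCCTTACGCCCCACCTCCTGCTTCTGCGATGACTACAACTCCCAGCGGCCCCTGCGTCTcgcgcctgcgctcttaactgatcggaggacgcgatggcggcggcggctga
The spans lay 75 bases apart for Fto and Rpgrip1l, 56 for Alkbh1 and Slirp, and 70 for Alkbh4 and Lrwd1. Within the capitals, the longest stretch shared on either strand by any pair, allowing 2 mismatches (N), was ACTACANNTCCCAG. It lay on the minus strand of Fto (91313305 to 91313318) and the plus strand of Alkbh4 (136136117 to 136136130), and its letters resemble known binding sites of the human promoter factor ZNF143. The letters were taken from this pair after the sequences had been seen, so their presence in both is no finding. For scale, 1.18% of 27025 genes with a promoter window hold them on either strand, and none of the other 7 family members does. The letters TATAAA, searched the same way, were in 0 of the 9, against 15.7% of these genes. GGGCGG was in 4 of the 9 and CCAAT in 5, against 38.2% and 41.1%. With 9 genes, no difference is read from these counts. These are matches of letters, and binding was not measured.

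Emg1 encodes a methyltransferase of small subunit ribosomal RNA. Its RNA was at 30.2% of control in the authors' deposited table (95% interval 26.1 to 35.0, adjusted p = 3.37e-54 by DESeq2). That table does not name the direction of its fold changes, and they are read as knockdown over control because Emg1 is negative. It holds no value per library, so error is given by the standard error (SE) of the fold change, and the spread behind it may be technical since no label says that libraries came from separate cultures. As a check of the cell type, 11 of 11 sympathoadrenal marker genes were in the table, with means of 42.6 to 13352. Of these, 10 had a mean of at least 100. Of 6 fibroblast markers 3 were matched with means of 33.7 to 1357, 1 of them at least 100. Of 5 leukocyte markers 2 were matched, with means no higher than 15.4.

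Of the 9 AlkB family genes, 1 rose after Emg1 knockdown, 0 fell and 8 did not pass. The call rule was the authors' adjusted p under 0.05, and by it 32.6% of the 12807 genes with an adjusted p were called (17.1% rose and 15.5% fell). Genes with means between the lowest and highest family mean were called in 37.8% of 9486 cases. The median log2 fold change of the family was 0.02, and that of all tested genes was 0.00. Sizes were small: 7 of the 9 were within 0.2 of zero on the log2 scale. The median absolute change was 0.12 for the family, 0.21 for all tested genes and 0.19 for genes with means in the family's range. Above zero were 5 members and below it 4.

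**Figure D1:**
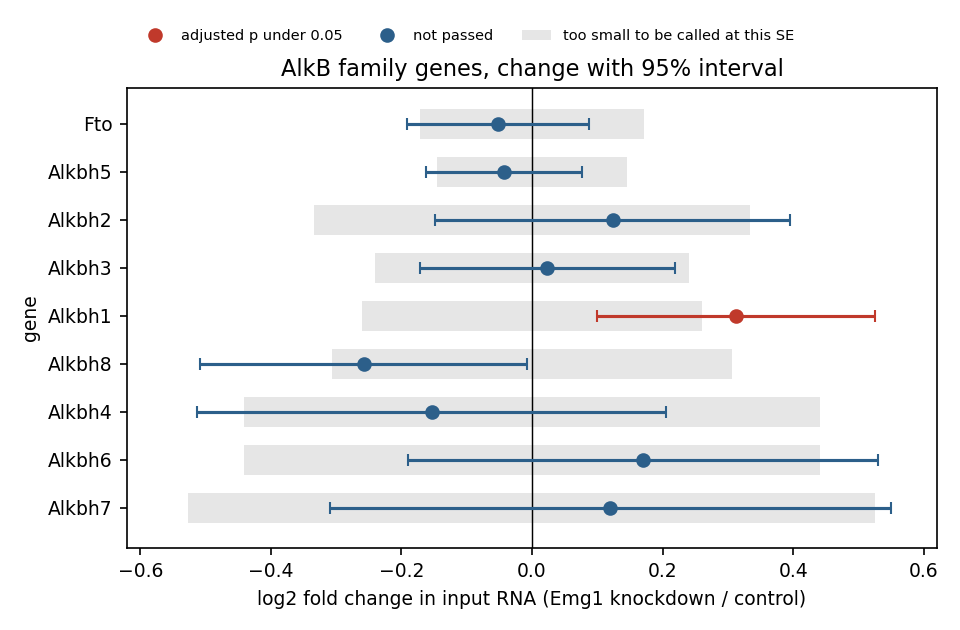
Log2 fold change of each AlkB family gene in input RNA, Emg1 knockdown over control, from the authors' deposited table, with 95% intervals from the SE. Grey bars span the changes too small to be called at each gene's SE, and only Alkbh1, at 0.31, lies beyond its bar.

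The m6A demethylase genes had the smallest SEs of the family, and neither passed. Fto, on chromosome 8 from 91313367 to 91668433, had a mean normalized count of 3266 and a log2 fold change of -0.05 ± 0.07 (SE) in the authors' deposited table (adjusted p = 0.633). This put Fto RNA at 96.5% of control, with a 95% interval of 87.6 to 106%. Alkbh5, a nuclear demethylase gene on chromosome 11 from 60537683 to 60558512, had a mean of 8456 and a change of -0.04 ± 0.06 in the authors' deposited table (adjusted p = 0.645). Alkbh5 RNA was at 97.1% of control, with an interval of 89.4 to 105%. At these SEs a rise of 12.6% or a fall of 11.2% for Fto, and a rise of 10.7% or a fall of 9.63% for Alkbh5, was the least that could have been called. Among genes with a mean within 2-fold of theirs, 47.0% were called around Fto and 53.8% around Alkbh5. Their absolute changes lay under the medians of those genes, which were 0.18 and 0.17.

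The genes of the transfer RNA enzymes had values of opposite sign, of which the positive one passed. Alkbh1, which demethylates transfer RNA in the cytoplasm and oxidises a methylated base in mitochondrial transfer RNA, rose by 0.31 ± 0.11 (log2, SE) in the authors' deposited table, with an adjusted p of 0.0156. That is 124% of control, with an interval of 107 to 144%, at a mean of 1151. Its change was higher than that of 84.8% of tested genes. Alkbh8, which modifies the wobble uridine of transfer RNA through a methyltransferase and a dioxygenase domain, stood at -0.26 ± 0.13 in the authors' deposited table. Its unadjusted p was 0.0436 and its adjusted p 0.110, so it was not called. Alkbh8 RNA was at 83.6% of control with an interval of 70.3 to 99.5%, at a mean of 755. The intervals of Alkbh1 and Alkbh8 did not overlap.

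A limit on the Alkbh1 value is position. Alkbh1 lies on chromosome 12 from 87428077 to 87443839, and the gene Nrp overlaps it by 992 bases at its 5′ end. Nrp had a mean of 81.2 and a change of 0.76 ± 0.39 in the authors' deposited table (adjusted p = 0.123). Libraries were stranded, but the sources used here do not state whether reads were counted by strand, and reads of the shared bases cannot be assigned with certainty.

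The repair enzyme genes for alkylated bases did not pass. Alkbh2, which repairs methylated bases in double-stranded DNA, had a mean of 603 and a change of 0.12 ± 0.14 in the authors' deposited table (adjusted p = 0.545), or 109% of control. Alkbh3, which acts on single-stranded DNA and on RNA, had a mean of 1378 and a change of 0.02 ± 0.10 in the authors' deposited table (adjusted p = 0.887), or 102% of control. The Alkbh3 interval, 88.8 to 116%, was narrower than that of Alkbh2, 90.3 to 132%. Both genes had intervals that included no change.

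The remaining genes were the least precisely measured. Alkbh4, whose product demethylates actin, had a mean of 346 and a change of -0.15 ± 0.18 in the authors' deposited table (adjusted p = 0.575). Alkbh6, for which no role is given here, had a mean of 336 and a change of 0.17 ± 0.18 in the authors' deposited table (adjusted p = 0.526). Alkbh7, a mitochondrial protein gene linked in mice to fat metabolism, had a mean of 236 and a change of 0.12 ± 0.22 in the authors' deposited table (adjusted p = 0.729). For Alkbh7 a rise of up to 44.0% would have gone uncalled, and for Alkbh4 and Alkbh6 one of up to 35.7% and 35.8%. The 95% intervals of Alkbh6 (87.7 to 144% of control) and Alkbh7 (80.7 to 146%) include a rise as large as that of Alkbh1. That of Alkbh4 (70.1 to 115%) does not, although it includes a fall of that log2 size.

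Ordered by log2 fold change, the family ran from Alkbh8 through Alkbh4, Fto, Alkbh5, Alkbh3, Alkbh7, Alkbh2 and Alkbh6 to Alkbh1. No neighbours in this order had separate 95% intervals. Of all 36 pairs, 3 had intervals apart, and each of them set Alkbh1 above another gene: Fto, Alkbh5 or Alkbh8. The share of such pairs among all tested genes is not given here, so no trait of the family is read from this count. Mean counts are not corrected for transcript length, so no order of RNA levels is given. In these bulk libraries, less RNA per cell and fewer cells expressing a gene cannot be told apart.

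**Figure D2:**
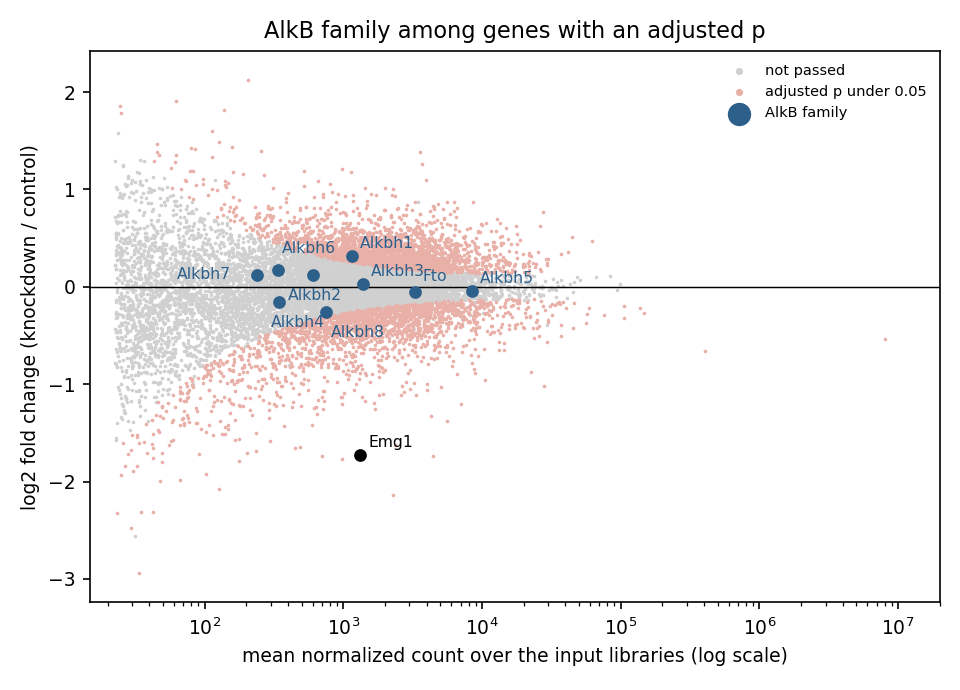
Each tested gene by its mean normalized count (log axis) and its log2 fold change, knockdown over control, in the authors' deposited table. The AlkB family (blue) lies between means of 236 and 8456, inside or at the edge of the uncalled band, while Emg1 (black) is at -1.73.

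The genes that start next to a family member gave these values. Rpgrip1l, a gene of the ciliary transition zone, was at -0.21 ± 0.16 beside Fto at -0.05 in the authors' deposited table (adjusted p = 0.336 for Rpgrip1l). Slirp, a mitochondrial RNA-binding protein gene, was at 0.07 ± 0.08 beside Alkbh1 at 0.31 in the authors' deposited table (adjusted p = 0.558 for Slirp). Lrwd1, which encodes a partner of the origin recognition complex, rose by 0.36 ± 0.09 beside Alkbh4 at -0.15 in the authors' deposited table (adjusted p = 0.000576 for Lrwd1). The intervals of Alkbh4 and Lrwd1 overlapped slightly, from 0.18 to 0.21, and the differences within pairs were not tested.

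**Figure D3:**
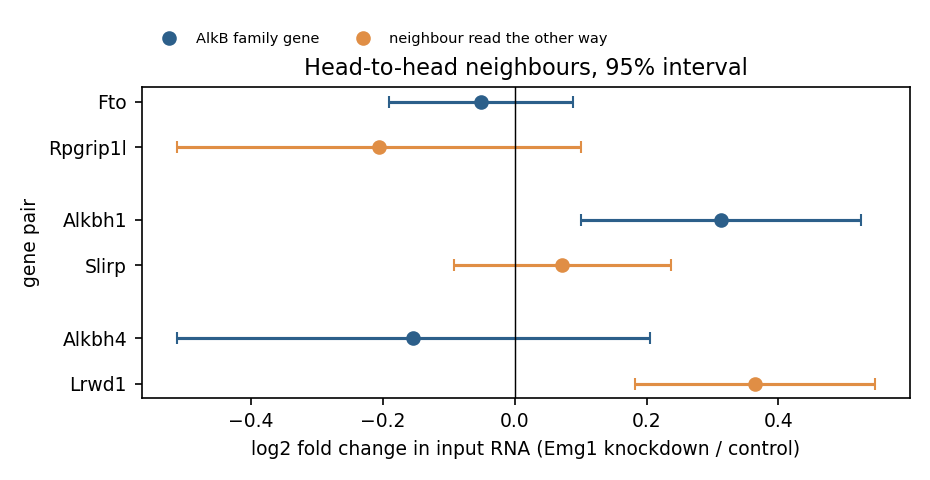
Log2 fold change in input RNA, knockdown over control, with 95% intervals, for 3 AlkB family genes (blue) and their neighbours (orange). In each pair the genes are read away from each other, and their spans lie at most 75 bases apart. Lrwd1 at 0.36 and Alkbh1 at 0.31 are the genes past the threshold.

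Of the 20 protein-coding genes nearest to or overlapping the family members, 17 had an adjusted p, 4 rose and 1 fell. The called share, 29.4%, was near the 32.6% of all tested genes. Ung, a uracil-DNA glycosylase gene that overlaps Alkbh2 by 868 bases, rose by 0.30 ± 0.12 in the authors' deposited table (adjusted p = 0.0422), against 0.12 for Alkbh2. As for Alkbh1 and Nrp, reads of the shared bases cannot be assigned with certainty. Orai2, a calcium channel gene after Alkbh4, rose by 0.38 ± 0.13, and Gtf2f1, a general transcription factor gene after Alkbh7, rose by 0.30 ± 0.07 in the authors' deposited table. Hsd17b12, a fatty acid elongation gene 21872 bases beyond Alkbh3, fell by 0.62 ± 0.06 in the authors' deposited table. Irx3, which follows Fto at a distance of 130077 bases, was not matched in the table.

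Of 9 genes for binding partners of the family, 6 rose and 1 fell, with a median log2 fold change of 0.21. The called share was 77.8%, beside 32.6% of all tested genes and 48.7% of those with a mean within 2-fold of the partners' median mean. Usp7 and Otud4, which in human cells keep ALKBH2 and ALKBH3 proteins stable, rose by 0.27 ± 0.07 and 0.28 ± 0.07 in the authors' deposited table (adjusted p = 0.000649 and 0.000853). Pcna, the replication clamp to which ALKBH2 binds in human cells, rose by 0.21 ± 0.06 in the authors' deposited table (adjusted p = 0.00232). Within the helicase complex that works with ALKBH3 in human cells, Ascc1 fell by 0.41 ± 0.10 in the authors' deposited table (adjusted p = 0.000634), while Ascc3, named after its value was seen, rose by 0.19 ± 0.07 (adjusted p = 0.0341). Trmt112, the partner of Alkbh8 and likewise named afterwards, was at 0.02 ± 0.11 in the authors' deposited table (adjusted p = 0.899). The partners had a median mean count of 3927 and a median SE of 0.07, against 755 and 0.13 for the family, so smaller changes could be called among them.

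Genes that modify transfer RNA at or near the positions AlkB enzymes act on rose in 5 of 15 cases and fell in 1. This called share of 40.0% was near the 40.4% of genes with a mean within 2-fold of the list's median. The cytosine methyltransferase gene Nsun2 rose by 0.33 ± 0.06, and Trmt10c, a subunit of the mitochondrial transfer RNA methyltransferase, by 0.32 ± 0.10 in the authors' deposited table (adjusted p = 5.17e-07 and 0.00558). Ctu1, a wobble uridine thiolase gene, rose by 0.47 ± 0.15, and the Elongator subunit gene listed as Ikbkap by 0.25 ± 0.07 in the authors' deposited table (adjusted p = 0.00733 and 0.00123). Of the other Elongator subunit genes, Elp5 fell by 0.22 ± 0.08 in the authors' deposited table (adjusted p = 0.0244), and Elp2, Elp3, Elp4 and Elp6 did not pass. These 5 were named after their values were seen.

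In the repair list, 5 of 8 genes rose and 1 fell. The called share was 75.0%, beside 32.6% of all tested genes and 43.7% of those with a mean within 2-fold of the list's median. Lig1, the replicative DNA ligase gene, rose by 0.46 ± 0.06, and the strand break factors Parp1 and Xrcc1 by 0.22 ± 0.06 and 0.26 ± 0.09 in the authors' deposited table (adjusted p = 1.46e-11, 0.00307 and 0.019). Mpg, the glycosylase gene that removes alkylated purines, fell by 0.40 ± 0.10 in the authors' deposited table (adjusted p = 0.00071). Mpg and the direct repair genes Alkbh2 and Alkbh3 thus gave different values, -0.40 against 0.12 and 0.02.

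The largest change around the family was in the supply of its co-substrate. Idh1, the cytosolic isocitrate dehydrogenase that makes 2-oxoglutarate, fell by 1.02 ± 0.08 to 49.3% of control in the authors' deposited table (adjusted p = 2.62e-34). Got1, a cytosolic transaminase gene, fell by 0.47 ± 0.08, the mitochondrial enzyme gene Idh2 by 0.28 ± 0.07 and Glud1, which makes 2-oxoglutarate from glutamate, by 0.27 ± 0.07 in the authors' deposited table. In that list of 12 genes, 5 fell and 4 rose, with a median of -0.07. The called share was 75.0%, beside 32.6% of all tested genes and 49.9% of those with a mean within 2-fold of the list's median. Metabolite levels were not measured.

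Other dioxygenases of the same chemistry went both ways. Of 48 with an adjusted p, 9 rose, 9 fell and 30 did not pass, with a median of 0.04. Ogfod1, which hydroxylates a ribosomal protein, fell by 0.82 ± 0.12, and the histone demethylase gene Kdm5b by 0.48 ± 0.09 in the authors' deposited table (adjusted p = 4.38e-10 and 5.66e-07). Phf2 and Kdm6b, also histone demethylase genes, rose by 0.50 ± 0.10 and 0.42 ± 0.09 in the authors' deposited table (adjusted p = 2.28e-06 and 4.28e-05). The called share, 37.5%, was near the 37.2% of genes with a mean within 2-fold of that list's median. The family's own share was 11.1%, and no test of the difference was made.

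Elsewhere in the m6A system, 6 of 9 listed writer and cofactor genes, Mettl16 among them, and 6 of 10 reader genes rose, and 0 and 1 of them fell. The called shares were 66.7% and 70.0%, beside 32.6% of all tested genes and 40.0% and 45.7% of those with means within 2-fold of each list's median. Cbll1, a ubiquitin ligase-like cofactor of the writer complex, rose by 0.39 ± 0.11 in the authors' deposited table (adjusted p = 0.00304). Zc3h13, Mettl16 and Rbm15 rose by 0.52, 0.38 and 0.30. Mettl3, named after its value was seen, was at 0.32 ± 0.13 in the authors' deposited table and did not pass (adjusted p = 0.0535). Wtap and Virma, listed as 1110037F02Rik, did not pass either. The readers with the smallest adjusted p, Fmr1, Ythdf2, Ythdf1 and Hnrnpa2b1, rose by 0.94, 0.48, 0.34 and 0.23 in the authors' deposited table. Hnrnpc fell by 0.17 ± 0.05, and Ythdf3, at -0.43 ± 0.21, did not pass. Both were named after their values were seen. The medians were 0.32 for writers and 0.27 for readers, beside -0.05 for Fto and -0.04 for Alkbh5. All of these values come from the same input libraries.

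**Figure D4:**
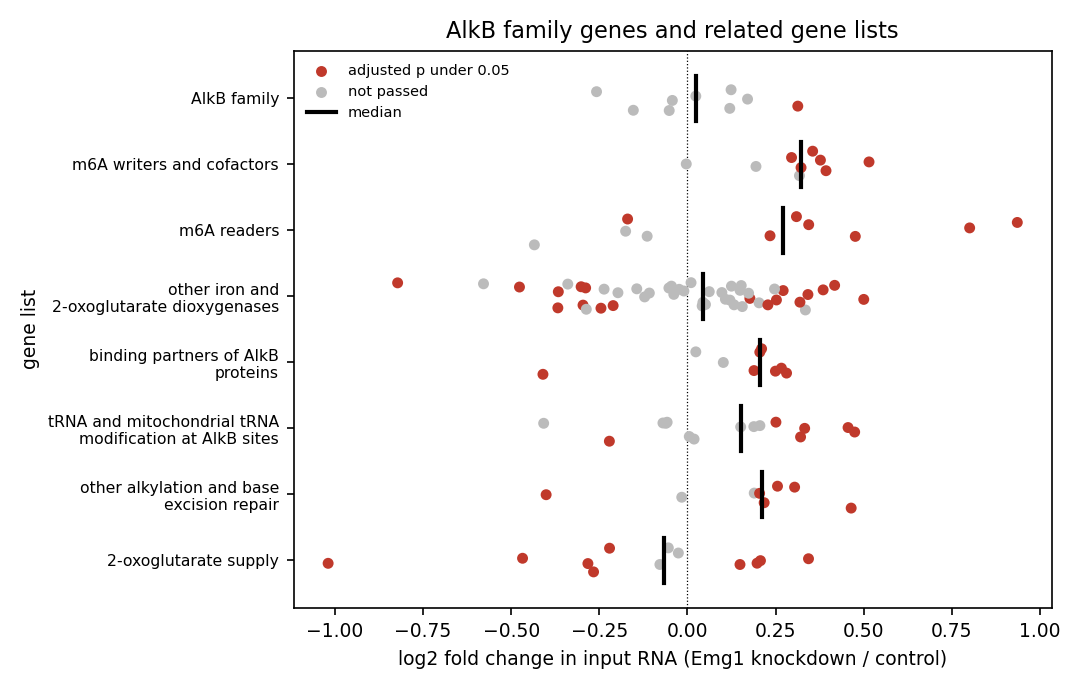
Log2 fold change in input RNA, knockdown over control, of each gene with an adjusted p in the AlkB family and in 7 related lists, with the median as a black line. The family median is 0.02 with 1 gene called, and the lowest point, Idh1 at -1.02, is in the 2-oxoglutarate supply list.

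The single differential m6A peak on the family was on Alkbh5, at chr11:60557883-60558003 of mm10 on the plus strand. It was a single block of 121 bases, with its midpoint at 97.3% of the gene span and its end 509 bases before the annotated end of the gene. The authors' deposited table gave it a log2 change of -0.95 with a false discovery rate of 3.47e-05. Nothing in it names the direction of that change, so the minus sign cannot be assigned to either condition. The other 8 members had 0 differential peaks by name, where 14.8% of all tested genes, and 17.7% of those at the family's means, carried a peak. Only differential peaks were analysed here, so other m6A peaks on these genes may exist.

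The Alkbh5 peak was weakly enriched. The authors' deposited table gave an enrichment of IP over input of 1.36-fold, and 66 of the 2114 peaks had an enrichment at or below this. The median enrichment of all peaks was 5.525-fold. Of 334 peaks with an enrichment under 2-fold, 237 had a negative and 97 a positive change. Over all 2114 peaks, 1123 changes were negative and 991 positive. In size the Alkbh5 change was unremarkable: 655 peaks changed at least as much, and the median of all negative changes was -0.72. Alkbh5 RNA in input, as given above, was at 97.1% of control. The sequence under the peak was not analysed here.

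Peaks on related genes had both signs and a wide range of enrichment. In the m6A system, the authors' deposited table held a peak on the reader gene Hnrnpa2b1 at 1.35-fold and -0.53. Its enrichment was like that of Alkbh5. A peak on the writer cofactor gene Wtap stood at 13.3-fold and -1.04. The false discovery rates of the peaks themselves ran in another order, with 1e-111 for Hnrnpa2b1, 2.95e-07 for Alkbh5 and 8.32e-05 for Wtap. The 50 other dioxygenase genes in the table held 13 differential peaks on 10 genes, 9 with a positive and 4 with a negative change. Over all peaks, 991 were positive and 1123 negative, and no test of the difference was made. Kdm6b had a peak enriched 27.1-fold with a change of -0.78, Jmjd1c one enriched 11.8-fold with a change of 0.89, and Kdm4b one enriched 8.52-fold with a change of 1.33 in the authors' deposited table. Of the 13 peaks, 7 had their midpoint in the last 10% of the gene span, where that of Alkbh5 also lay. The share of all differential peaks with such a midpoint is not given here. No likeness particular to these genes is therefore read from this count. In the repair list, Apex1, Polb and Lig1 carried negative changes of -0.96, -1.06 and -1.07, at enrichments of 3.49-fold, 1.80-fold and 6.59-fold in the authors' deposited table. Lig3, the remaining gene of that list with a peak, had a positive change of 0.63 at 10.3-fold in the authors' deposited table. The partner, transfer RNA and 2-oxoglutarate lists held 0 peaks. Of all tested genes 14.8% carried a differential peak, and no difference of any list from this share was tested.

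**Figure D5:**
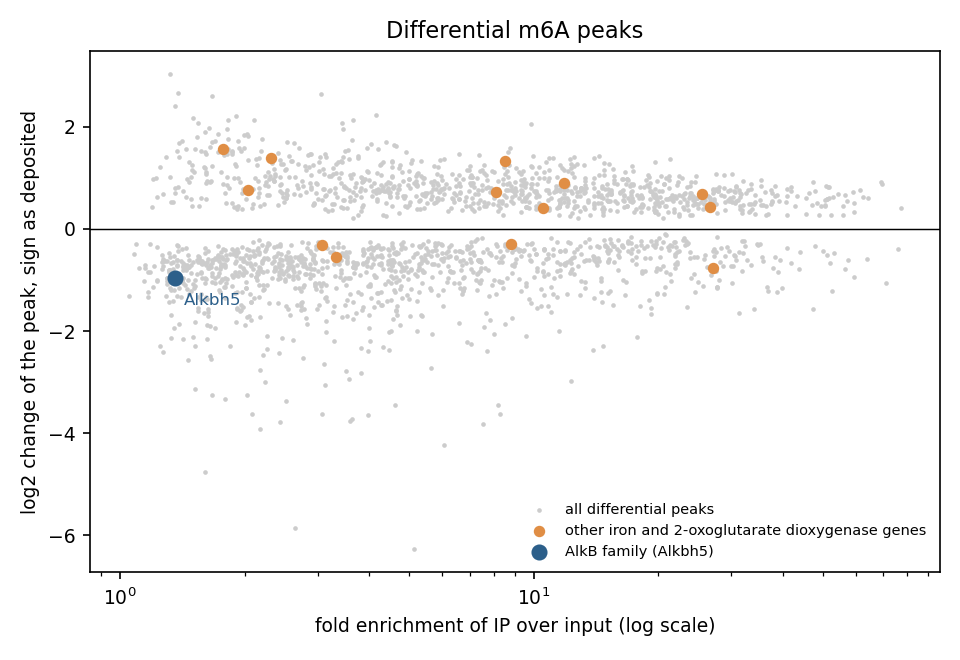
All 2114 differential m6A peaks by fold enrichment of IP over input (log axis) and log2 change with the sign as deposited. The Alkbh5 peak (blue) lies at 1.36-fold and -0.95, at the weak end of the enrichment range, while peaks on other dioxygenase genes (orange) reach 27.1-fold.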

How the data were processed

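The 2 tables of results used here hold no values per library, so the depth of each library is unknown and no count model was fitted. The input table holds the authors' DESeq2 results. Per the file headers, its mean column is a signal on the scale of normalized counts, averaged over the libraries fitted. The authors gave the fold change and SE as log2, with a Wald score. They deposited a p-value for every gene and left the adjusted p-value empty for 3472 genes with means of at most 22.7. For each peak the authors deposited an enrichment ratio (IP over input), a log2 change and false discovery rates on a log10 scale, and a p-value score that was not used. The submitters' processing notes name Trimmomatic, HISAT2, DESeq2 and mm10. The sources used here do not name the counter, the peak caller, versions or any pooling of replicates.

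From these, 95% Wald intervals, percent of control and the smallest change that could be called (2.40 times the SE, the Wald score at the largest called p) were computed. Members were taken by the fixed list, and 7 lists of related genes by symbol, 4 of 113 through older symbols. Igf2bp1, P3h2, Bbox1, Tmlhe and Mgmt were not matched. The members and lists were chosen with earlier results of these data known. Named genes were all members, up to 4 genes per list with the smallest adjusted p, neighbours, and up to 3 list genes with a peak. Neighbours were the nearest protein-coding genes of RefSeq GRCm38.p6 on each side and any overlapping ones. Adjustment was tested on simulated data. Alternatives were other thresholds, adjustment over all genes, centring, a minimum mean of 100, and stricter peak rules. Computation used scipy 1.17.1, pandas 2.3.3 and numpy 2.4.6 in Python 3.11.15, with plots by matplotlib 3.10.9.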

Additional observations from a re-analysis of the deposited data

How the results depend on the processing

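The count of AlkB family genes called in input RNA was 1 at an adjusted p under 0.1, with adjustment over all genes, after subtracting the median change (0.01) of genes whose mean reached 100, and among those genes only. At an adjusted p under 0.01 it was 0, since Alkbh1 had 0.0156. Over these settings the adjusted p of Alkbh1 lay between 0.0138 and 0.0198 and that of Alkbh8 between 0.098 and 0.138. At the stricter threshold the repair list had 3 called genes in place of 6. The other list counts stayed within 1.5 times. With peaks of at least 2-fold enrichment, 0 differential peaks remained on the family in place of 1, because the Alkbh5 peak had 1.36. No paired analysis was possible because the tables hold no values per library, and for the same reason leaving out replicates and other count models were not run. Precision limits Alkbh4, Alkbh6 and Alkbh7 most, where changes under 0.44 to 0.53 (log2) could not be called.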
